A study of Mus musculus with 24 samples.

Results

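Ndufs4 encodes an accessory subunit of complex I, where electrons from NADH enter the mitochondrial respiratory chain, and it is the gene that the study's conditional knockout removes from the brain. It was taken as the 1 row of the deposited count table whose Ensembl identifier, ENSMUSG00000021764, carries the mouse symbol Ndufs4, out of 43430 genes in all. Each of the 24 libraries holds polyA-selected RNA of 1 mouse's whole cerebellum, taken at an age of about 7 weeks. By genotype they divide into cKO, cKO+NDI1, NDI1 control and Cre control, with 6 mice in each (3 males, 3 females). The cKO mice carry the conditional knockout. The cKO+NDI1 mice carry the same knockout and also express NDI1, a single-protein enzyme of yeast mitochondria that turns NADH into NAD+ but pumps no protons. The NDI1 control mice express NDI1 without the knockout, and the Cre control mice carry the Cre recombinase. The labels name neither the targeted gene, the promoter that drives Cre nor the Ndufs4 alleles of the controls. The published design, given here as background, uses a floxed Ndufs4 allele and a Cre driven by the nestin promoter, which is active in neural progenitors, so that endothelial cells, microglia and blood cells of the cerebellum lie outside the targeted lineage. The values therefore ask how much Ndufs4 RNA was counted in the knockout cerebella, with and without NDI1.

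Complex I passes electrons from NADH to ubiquinone and pumps protons across the inner mitochondrial membrane. Its N module binds and oxidises NADH, its Q module reduces ubiquinone, and its membrane arm pumps protons. NDUFS4 sits beside the N module and holds it on the rest of the enzyme, and its loss in humans causes Leigh syndrome, a neurodegenerative disease of infancy. In mice, loss of Ndufs4 in the brain gives a fatal encephalopathy with ataxia, and the cerebellum is among the regions affected.

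The deposited gene model of Ndufs4 lies at chr13:114287795-114388094 on the minus strand of mm10 and has a length of 1534 bases. That length equals the sum of the 5 exons of the annotated transcript Ndufs4-201 inside those ends. The floxed allele of the published design removes exon 2, which lies at chr13:114351448-114351526. Exon 2 is coding throughout and has 79 bases, which leaves a remainder of 1 on division by 3, so that joining exon 1 to exon 3 shifts the reading frame. The sequences show what the deletion takes out of the transcript and where the shifted frame ends. They were cut from the annotated transcript sequence of Ndufs4-201, whose gene lies on the minus strand of mm10, and run 5′ to 3′. In the first, capitals mark exon 2, with the 15 last bases of exon 1 and the 15 first bases of exon 3 in lower case. In the second, capitals mark the first stop codon in the shifted frame.
exon 2 in place: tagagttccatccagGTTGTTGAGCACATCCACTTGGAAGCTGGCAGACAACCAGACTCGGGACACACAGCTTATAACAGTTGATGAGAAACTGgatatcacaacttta
exon 1 joined to exon 3: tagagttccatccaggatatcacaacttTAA
After the join, 13 bases of exon 3 precede the stop, and the open frame has 37 codons, against 175 codons in the full-length transcript. The annotation holds the same join as a transcript of its own, Ndufs4-202, listed as a target of nonsense-mediated decay, the pathway that degrades RNAs with early stop codons.

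Exon 2 makes up 5.15% of the deposited gene model, so that a transcript without it keeps 94.85% of the counted length. Exon 5, which lies downstream of the deletion, makes up 69.88%. The deposited values are whole-gene counts, and reads over exon 2 were not separated from the rest. A remaining count can therefore come from transcripts without exon 2, from cells in which the allele was not cut, or from both, and these cannot be told apart here. In whole tissue, fewer cells that express the gene and less RNA per cell also cannot be told apart.

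Ndufs4 was lower in both knockout groups than in their controls, with 71.2% of the Cre control's mean CPM in cKO and 70.3% of the NDI1 control's in cKO+NDI1, but neither difference passed the genome-wide threshold when tested alone. Levels are in CPM, counts divided by the library size after TMM scaling. In cKO males Ndufs4 had 97.8, 88.7 and 67.1 CPM, and in cKO females 88.6, 97.3 and 133 CPM. In Cre control males it had 149, 164 and 139 CPM, and in Cre control females 107, 139.8 and 104 CPM. Of the 6 cKO libraries, 5 lay below every Cre control library, and the cKO female F3 lay inside the Cre control range; 1.07% of genes were lower in all 6 cKO libraries. In cKO+NDI1 males Ndufs4 had 103, 119.6 and 95.5 CPM, and in cKO+NDI1 females 114, 96.9 and 77.1 CPM. In NDI1 control males it had 199, 195 and 123 CPM, and in NDI1 control females 123, 116 and 106 CPM. Of the 6 cKO+NDI1 libraries, 4 lay below every NDI1 control library, and the male M2 and the female F1 lay inside the NDI1 control range; 0.124% of genes were lower in all 6 cKO+NDI1 libraries.

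**Figure D1:**
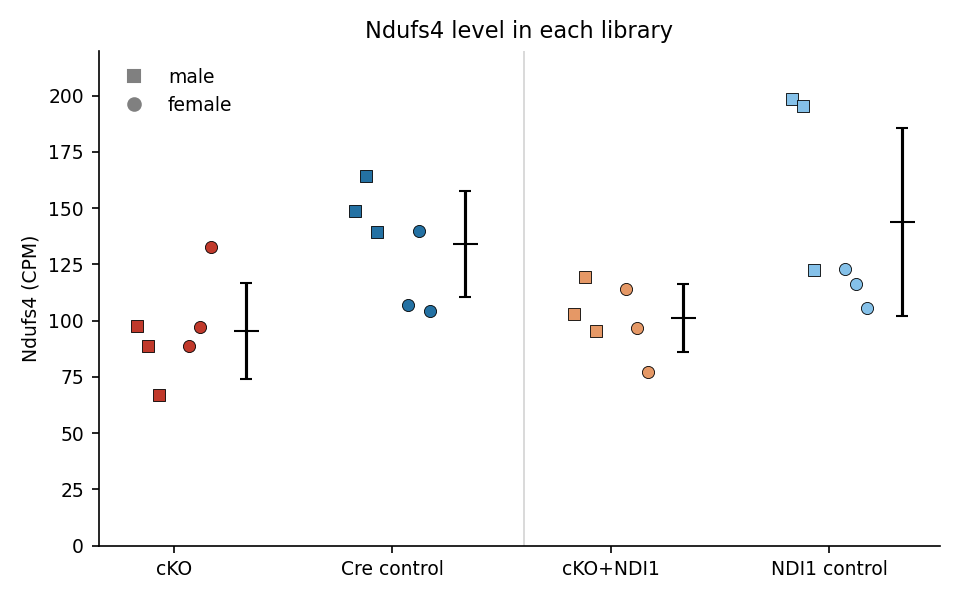
Ndufs4 level in CPM (y axis, from 0) in each library of the 4 groups (x axis), with squares for males and circles for females; the bar beside each group is its mean ± SD (n = 6). The knockout groups average 95.4 and 101 CPM, and their controls average 134 and 144 CPM; the largest spread is in the NDI1 control, where 2 males lie at 199 and 195 CPM.

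Ndufs4 averaged 95.4 ± 21.5 CPM in cKO and 134 ± 23.6 CPM in Cre control (SD, n = 6 each). The log2 fold change was -0.47 ± 0.16 (SE), or 72.3% of the Cre control level with a 95% interval of 58.2% to 89.8%. edgeR's quasi-likelihood test gave an unadjusted p of 0.00736 and an adjusted p of 0.0939 over 15300 genes, short of the threshold of 0.05. In this comparison 4.87% of genes passed, and 1.81% passed as lower in cKO; Ndufs4 ranked 1199 by p. An exact two-sided permutation test of genotype within sex gave p = 0.025 for Ndufs4 alone, where 400 relabelings allow no p below 0.005. Without the cKO female F3 the log2 fold change was -0.62 and passed (edgeR adjusted p = 0.0162); with any other library left out it did not. Across the fits with 1 library left out, 504 to 914 genes passed in this comparison.

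With NDI1 present in both groups the size of the difference was close to the same. Ndufs4 averaged 101 ± 15.1 CPM in cKO+NDI1 and 144 ± 41.8 CPM in NDI1 control (SD, n = 6 each). The log2 fold change was -0.49 ± 0.16, or 71.1% of the NDI1 control level with a 95% interval of 57.3% to 88.2%. edgeR gave an unadjusted p of 0.00495 and an adjusted p of 0.781, and the exact permutation test within sex gave p = 0.015. No gene passed in this comparison (0 of 15300, 0%), while 686 genes had an unadjusted edgeR p under 0.05 and Ndufs4 ranked 96 by p; DESeq2 called 23 genes and limma-voom 0. By log2 fold change, Ndufs4 was number 78 from the lowest.

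NDI1 itself did not move the Ndufs4 count past any test. The log2 fold change was 0.07 ± 0.16 in cKO+NDI1 against cKO (edgeR adjusted p = 0.946; 0.209% of genes passed) and 0.09 ± 0.16 in NDI1 control against Cre control (edgeR adjusted p = 0.842; 0.00654% of genes passed). Their 95% intervals span -0.24 to 0.38 and -0.22 to 0.40 on the log2 scale, so changes within these ranges are not excluded. The knockout difference with NDI1 minus that without it was -0.02 ± 0.22 on the log2 scale (edgeR adjusted p = 0.9999), and no gene passed the test of that difference (0%), with 792 at an unadjusted p under 0.05. Set against the Cre control instead, cKO+NDI1 gave -0.40 ± 0.16 (edgeR adjusted p = 0.246; 1.25% of genes passed; exact permutation p = 0.015). From high to low, the order of the group means was NDI1 control, Cre control, cKO+NDI1 and cKO, and neither the control pair nor the knockout pair differed beyond its spread.

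Because both knockout comparisons missed the threshold with nearly the same fold change, their mean was also tested in the same model; this contrast was chosen after the values were seen. Both knockout groups against both controls gave a log2 fold change of -0.48 ± 0.11, or 71.7% with a 95% interval of 61.5% to 83.6% (edgeR adjusted p = 0.0148). In that contrast 4.88% of genes passed and 1.98% passed as lower, and Ndufs4 ranked 292 by p. Of the 12 knockout libraries, 9 lay below all 12 controls, and 0.00654% of genes were lower in all 12. An exact permutation test of knockout against control within sex and NDI1 status gave p = 0.000812 over 160000 relabelings.

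The libraries of a group spread widely in Ndufs4, and they did so together with the other subunits of complex I. Over the 24 libraries, the log2 CPM of Ndufs4 and the mean log2 CPM of the 35 other nuclear subunits tested had a Pearson r of 0.85 and a Spearman rho of 0.81. After the mean of each group and sex was subtracted, r was 0.93 and rho 0.95. These are descriptions over 24 points that share library depth and scaling between the measures. The cKO female F3, the highest cKO library for Ndufs4, was also the highest cKO library for the other subunits, with a mean log2 CPM of 7.396, and the cKO male M3 was lowest in both, with 6.88.

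Ndufs4 was therefore also expressed relative to the other subunits of the same library, a measure added after the values were seen. It is the log2 CPM of Ndufs4 minus the mean log2 CPM of the 35 others, with the Cre control mean set to 0. On this scale the cKO males had -0.37, -0.33 and -0.66 and the cKO females -0.31, -0.40 and -0.19. The cKO+NDI1 males had -0.44, -0.32 and -0.43 and the cKO+NDI1 females -0.37, -0.45 and -0.45. The knockout libraries thus ran from -0.66 to -0.19, and the cKO+NDI1 libraries lay closer together than the cKO libraries. The NDI1 control males had 0.09, 0.05 and -0.11 and the NDI1 control females -0.11, -0.02 and -0.10. The Cre control males had -0.10, 0.09 and 0.09 and the Cre control females -0.07, -0.03 and 0.02. All 12 knockout libraries lay below all 12 control libraries, the highest knockout value being -0.19 and the lowest control value -0.11.

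**Figure D2:**
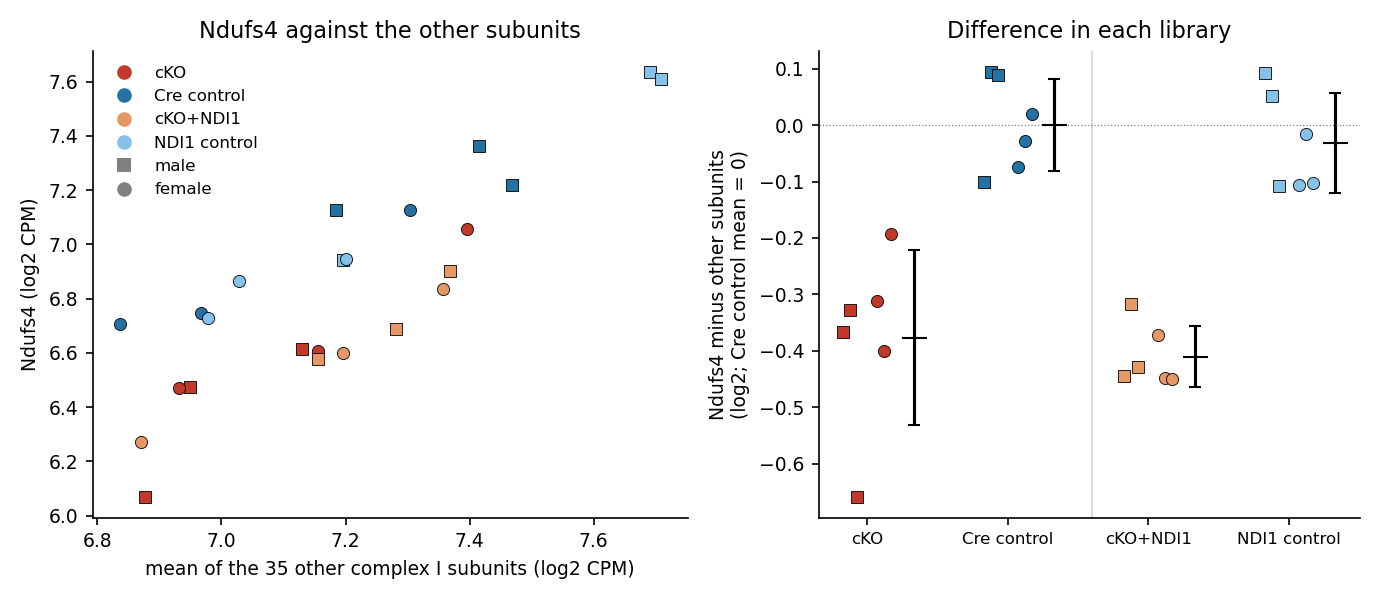
Left, Ndufs4 (y axis, log2 CPM) against the mean of the 35 other nuclear complex I subunits (x axis, log2 CPM) in each of 24 libraries, coloured by group, with squares for males and circles for females. Right, the difference between the 2 quantities in each library (y axis, log2, Cre control mean set to 0) by group (x axis), with mean ± SD (n = 6). The 12 knockout libraries form a band under the 12 control libraries, at -0.66 to -0.19 against -0.11 to 0.09.

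The relative level was -0.38 ± 0.16 in cKO and 0.00 ± 0.08 in Cre control (SD, n = 6 each), a difference of -0.38 ± 0.07 (SE), or 77.0%. It was -0.41 ± 0.05 in cKO+NDI1 and -0.03 ± 0.09 in NDI1 control (SD, n = 6 each), a difference of -0.38 ± 0.04, or 76.9%. In each comparison the exact permutation test within sex gave p = 0.005, the smallest that 400 relabelings can give, and 0.00833 adjusted over the 5 group comparisons made. On the same scale cKO+NDI1 against cKO differed by -0.03 (exact permutation p = 0.64), and NDI1 control against Cre control by -0.03 (exact permutation p = 0.47). With both knockout groups together, the exact permutation p was 1.25e-05, the smallest that 160000 relabelings can give. When all 15265 tested genes other than the 35 subunits were put on the same scale, 0.00655% (1 gene, Ndufs4 itself) lay lower in all 12 knockout libraries than in all 12 controls, and 0.0393% lay higher in all 12. For single comparisons, 0.144% of genes were lower without overlap in cKO than in Cre control, and 0.00655% in cKO+NDI1 than in NDI1 control.

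The relative value showed a somewhat smaller difference and a smaller spread than the CPM of Ndufs4. The SD within group and sex was 0.25 for the log2 CPM of Ndufs4 and 0.10 for the relative value, while the mean of the other subunits had an SD of 0.20. In the edgeR model, adding the mean of the other subunits as a covariate gave -0.35 ± 0.05 for cKO against Cre control (adjusted p = 1.27e-05) and -0.36 ± 0.05 for cKO+NDI1 against NDI1 control (adjusted p = 0.000338). With that covariate 24.7% of all genes passed in cKO against Cre control and 0.542% in cKO+NDI1 against NDI1 control, and 13.2% and 0.327% passed as lower. A surrogate variable estimated from all genes did not move Ndufs4 past the threshold, with -0.52 (adjusted p = 0.162) and -0.49 (adjusted p = 0.786). Correcting each library for a trend with gene length gave -0.45 in both, which passed for cKO against Cre control (edgeR adjusted p = 0.00818; 6.63% of genes passed, 2.87% as lower) and not for cKO+NDI1 against NDI1 control (edgeR adjusted p = 0.124; 0% passed). These 3 settings were also chosen after the values were seen.

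**Figure D3:**
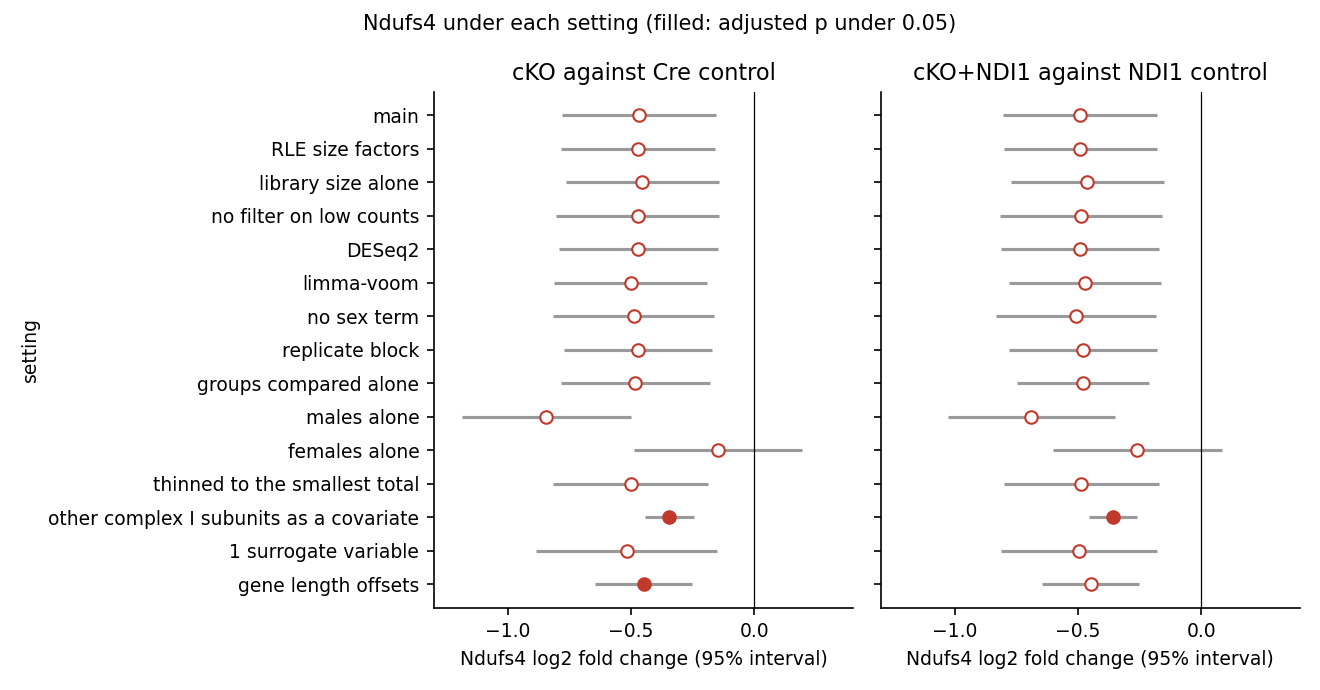
Log2 fold change of Ndufs4 with its 95% interval (x axis) under each setting (y axis), for cKO against Cre control (left) and cKO+NDI1 against NDI1 control (right); filled points passed an adjusted p of 0.05. All points lie below 0; they pass with the other subunits as a covariate in both panels and with gene length offsets in the left panel.

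The knockout difference was larger in males than in females before the other subunits were taken into account. Ndufs4 averaged 84.5 ± 15.8 CPM in cKO males and 151 ± 12.5 CPM in Cre control males, and 106 ± 23.5 CPM in cKO females and 117 ± 19.7 CPM in Cre control females (SD, n = 3 each). It averaged 106 ± 12.3 CPM in cKO+NDI1 males and 172 ± 42.9 CPM in NDI1 control males, and 96.0 ± 18.5 CPM in cKO+NDI1 females and 115 ± 8.72 CPM in NDI1 control females (SD, n = 3 each). Each knockout group lay below its control without overlap among males (3 against 3), as 12.4% of genes did in cKO against Cre control and 9.26% in cKO+NDI1 against NDI1 control, and overlapped it among females. In males alone the log2 fold changes were -0.84 (edgeR adjusted p = 0.0665) for cKO against Cre control and -0.69 (edgeR adjusted p = 0.192) for cKO+NDI1 against NDI1 control, and in females alone they were -0.15 and -0.26. The knockout difference in males minus that in females was -0.57 ± 0.19 (edgeR adjusted p = 0.0797), and no gene passed that test (0%), while 4855 had an unadjusted p under 0.05. DESeq2 gave -0.56 with an adjusted p of 0.0393. In edgeR it passed when the Cre control F2 (adjusted p = 0.0287), NDI1 control M3 (0.0140), cKO+NDI1 F3 (0.0342) or cKO F1 (0.0420) library was left out. The share of all genes that passed with DESeq2 or in these edgeR fits was not computed. The passes therefore cannot be read as particular to Ndufs4.

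For the same difference between the sexes, none of the 35 other subunits passed (0% of all genes passed). Their values were all negative, with a median of -0.45 on the log2 scale, and they move together from library to library, so that they are not separate observations. Relative to the other subunits, Ndufs4 differed by -0.48 in cKO males and -0.27 in cKO females, each from the Cre control of its sex. For cKO+NDI1 against NDI1 control the values were -0.41 in males and -0.35 in females. With the other subunits as a covariate the difference between the sexes was -0.06 ± 0.09 (edgeR adjusted p = 0.936). Across groups, males against females differed by 0.19 ± 0.11 in Ndufs4 (edgeR adjusted p = 0.319; 0.085% of genes passed).

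Within complex I, Ndufs4 had the lowest log2 fold change of the 36 nuclear subunits measured in both knockout comparisons. The subunit gene Ndufb1 and the assembly factor gene Coa1 were not analysed here. Of the 35 other subunits, 1 fell in cKO against Cre control, where 1.81% of all genes fell, so that this count is near the background, and 0 passed in cKO+NDI1 against NDI1 control (0% of all genes). Their log2 fold changes ran from -0.36 to 0.04 with a median of -0.09 in the first comparison, where 32 of 35 were negative, and from -0.16 to -0.02 with a median of -0.11 in the second, where 35 of 35 were negative. The median over all genes tested was -0.01 in each. The subunits move together from library to library, so these signs are not 35 separate observations; with scaling by library size alone, 34 of 35 were negative in the second comparison. In cKO+NDI1 against cKO all 35 had positive values, with a median of 0.14 and none past the threshold.

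The subunit that fell was Ndufs1, the largest subunit of the N module, which carries iron-sulfur clusters on the path of electrons from NADH. In cKO it had 220, 226 and 214 CPM in males and 200.4, 211 and 199.9 CPM in females. In Cre control it had 249, 249.98 and 231 CPM in males and 242, 234 and 226 CPM in females. Only the cKO male M2 reached the lowest Cre control library. The log2 fold change of Ndufs1 was -0.17 ± 0.05 (edgeR adjusted p = 0.0272), with an adjusted p of 0.0615 when scaled by library size alone. In cKO+NDI1 against NDI1 control Ndufs1 had -0.13 (edgeR adjusted p = 0.801).

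The other 8 members of the N module, none of which passed, had log2 fold changes smaller in size than that of Ndufs4 in both comparisons. Over all genes, 4.87% passed in cKO against Cre control and 0% in cKO+NDI1 against NDI1 control. Ndufv1, which binds NADH and the flavin cofactor, had a log2 fold change of -0.02 in cKO against Cre control and -0.12 in cKO+NDI1 against NDI1 control. Ndufv2, which carries an iron-sulfur cluster, had -0.04 and -0.10, and the accessory subunit Ndufv3 had 0.04 and -0.08. Ndufs6, an accessory subunit at the junction of the N and Q modules, had -0.25 and -0.10, and Ndufa12, beside it, had -0.12 and -0.12. The values were -0.23 and -0.11 for Ndufa2, -0.15 and -0.04 for Ndufa6 and -0.09 and -0.15 for Ndufa7, all accessory subunits. Ndufaf2, the assembly factor that occupies the site of Ndufa12 during assembly, had -0.21 and -0.05. Of 16 assembly factors tested, 0 passed in either comparison (4.87% and 0% of all genes passed). In each comparison 13 were negative, with medians of -0.10 and -0.05.

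**Figure D4:**
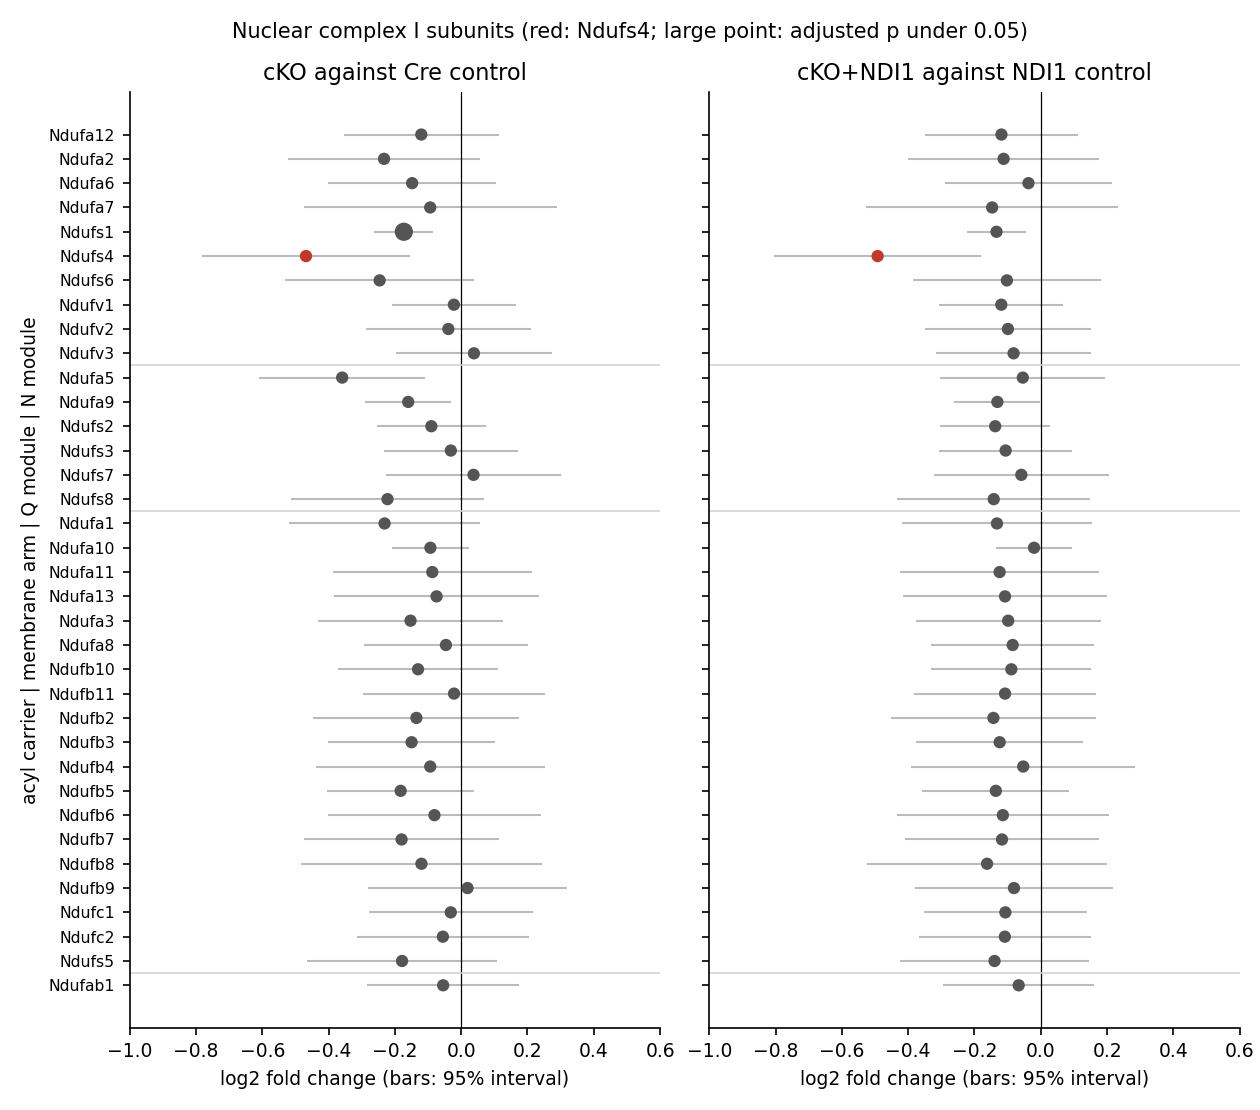
Log2 fold change (x axis, with 95% interval) of the 36 nuclear complex I subunits (y axis, grouped by module from the N module at the top) in cKO against Cre control (left) and cKO+NDI1 against NDI1 control (right). Ndufs4, in red, lies farthest to the left in both panels; Ndufs1, the large point in the left panel, is the subunit that passed an adjusted p of 0.05.

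Compared per length, Ndufs4 stood near the middle of the nuclear subunits. Its level in RPKM, the CPM divided by the deposited gene length in kilobases, was 62.2 ± 14.01 in cKO, 65.9 ± 9.84 in cKO+NDI1, 93.7 ± 27.2 in NDI1 control and 87.3 ± 15.4 in Cre control (SD, n = 6 each). It ranked 15 of 36 by RPKM in cKO, 16 in cKO+NDI1 and 14 in each of NDI1 control and Cre control. These ranks depend on the deposited gene model lengths, which were 1534 bases for Ndufs4, 9974 for Ndufv1 and 16765 for Ndufs1. The Ndufs4 RNA that remained in cKO was thus at a level within the range of the other subunits.

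The genes around Ndufs4 were measured to see whether the whole region moved with it. Among the 20 tested genes nearest on each side, which span 5880 kb toward lower and 5377 kb toward higher coordinates, 3 rose and 0 fell in cKO against Cre control (3.06% of all genes rose), with a median of -0.04. None of the 40 passed in cKO+NDI1 against NDI1 control (0% of all genes passed), with a median of -0.02. The nearest on the lower side, Arl15, an ARF-like GTPase gene at 130.3 kb, had a log2 fold change of -0.06 in cKO against Cre control and 0.04 in cKO+NDI1 against NDI1 control. The nearest on the higher side, Mocs2, needed to make the molybdenum cofactor, lies at 430.1 kb and had 0.00 and -0.10. Next on the lower side, Hspb3, a small heat shock protein gene, had -0.16 and -0.17, Snx18, a sorting nexin gene, had 0.04 and -0.02, BC067074 had -0.18 and 0.18, and Gpx8, of the glutathione peroxidase family, had -0.20 and -0.23. On the higher side, Itga1, an integrin subunit gene, had 0.16 and 0.30, Pelo, a ribosome rescue factor gene, had 0.01 and -0.02, and Gm17509 had 0.42 and 0.09.

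The 3 neighbours that rose in cKO all lie on the higher side. The nearest of them, Parp8, of the poly(ADP-ribose) polymerase family, lies at 2467 kb and had 15.04, 18.7 and 16.3 CPM in cKO males and 15.7, 17.5 and 18.9 CPM in cKO females. In Cre control it had 11.4, 13.8 and 14.8 CPM in males and 13.7, 12.3 and 14.9 CPM in females. All 6 cKO libraries lay above all 6 Cre control libraries, which 1.61% of genes did in that direction. The log2 fold change of Parp8 was 0.34 ± 0.10 (edgeR adjusted p = 0.0383), and in cKO+NDI1 against NDI1 control it was 0.19 (edgeR adjusted p = 0.998). The others were 4833420G17Rik at 5075 kb, with 0.33 ± 0.09 (edgeR adjusted p = 0.0259), and Gm9752 at 5086 kb, with 0.96 ± 0.25 (edgeR adjusted p = 0.0253). In cKO+NDI1 against NDI1 control these had 0.01 and 0.40.

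**Figure D5:**
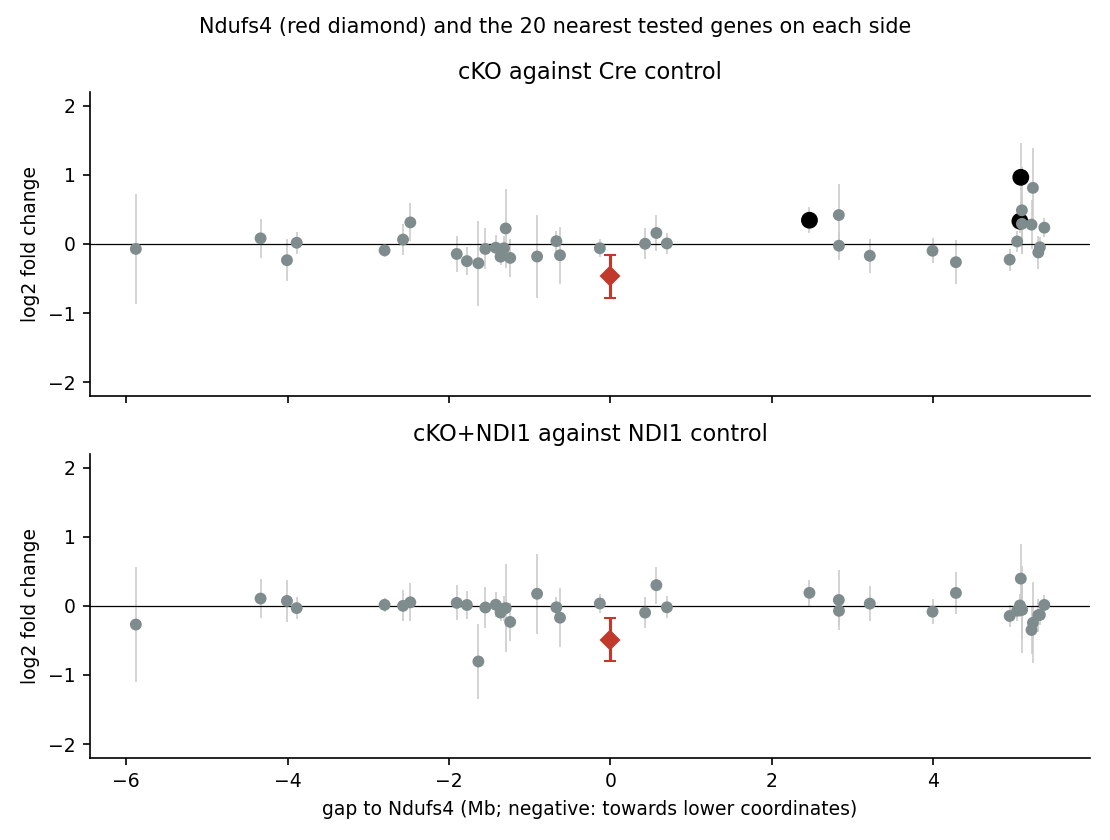
Log2 fold change (y axis) of Ndufs4, the red diamond with its 95% interval, and of the 20 nearest tested genes on each side by distance (x axis, Mb; negative toward lower coordinates), in cKO against Cre control (top) and cKO+NDI1 against NDI1 control (bottom). Large black points passed an adjusted p of 0.05: 3 in the upper panel, all higher in cKO and all more than 2 Mb away, and 0 in the lower panel.

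Endothelial cells, microglia and blood cells lie outside the targeted lineage under the published design and would keep an uncut allele. Their markers were set beside Ndufs4, with those of pericytes and smooth muscle and of meningeal fibroblasts and choroid plexus. Whether the cells of these further lists carry the cut allele was not tested. The summed level of 12 endothelial markers was 438 to 515 CPM in cKO and 415 to 455 CPM in Cre control, and 442 to 500.1 CPM in cKO+NDI1 and 448 to 498 CPM in NDI1 control. The 9 markers of pericytes and smooth muscle summed to 427 to 477 CPM in cKO and 345 to 430.2 CPM in Cre control, and to 422 to 498 CPM in cKO+NDI1 and 394 to 443 CPM in NDI1 control. The 9 markers of microglia and macrophages summed to 180.3 to 232 CPM in cKO and 185 to 225 CPM in Cre control, and to 176 to 233 CPM in cKO+NDI1 and 168 to 207 CPM in NDI1 control. These ranges overlapped between each knockout group and its control, and no marker of any list was at 0 in any group. In cKO against Cre control, 1 endothelial marker (Pecam1, log2 fold change 0.76), 3 mural markers (Acta2 0.84, Myh11 0.77 and Rgs5 0.25) and 0 microglial markers rose (edgeR, adjusted p under 0.05), where 3.06% of all genes rose. The 12 endothelial markers ran from -0.14 to 0.76 with a median of 0.20, and 3 were negative. The 9 mural markers ran from -0.18 to 0.84 with a median of 0.17, and 2 were negative. Of the 9 microglial markers 6 were negative, with a median of -0.03. Myh11 (adjusted p = 0.0495) did not pass with RLE scaling (adjusted p = 0.0514). The 8 markers of meningeal fibroblasts and choroid plexus summed to 1197 to 3771 CPM in cKO and 1217 to 4276 CPM in Cre control, and to 1403 to 3445 CPM in cKO+NDI1 and 1682 to 3906 CPM in NDI1 control. The 4 blood markers summed to 189 to 571 CPM in cKO and 307 to 589.6 CPM in Cre control, and to 174 to 881 CPM in cKO+NDI1 and 274 to 1471 CPM in NDI1 control. None of these 12 markers passed in either comparison, where 4.87% and 0% of all genes passed. The log2 fold changes of the blood markers were all negative, with medians of -0.27 and -0.48. Those of the meningeal and choroid markers had medians of 0.06 and -0.14. No marker of the 5 lists passed in cKO+NDI1 against NDI1 control, where 0% of all genes passed. Against the Cre control, cKO+NDI1 was higher in 1 of 12 endothelial markers (Pecam1, 0.46, edgeR adjusted p = 0.0160) and 1 of 9 mural markers (Acta2, 0.73, edgeR adjusted p = 0.0181). In that comparison 1.25% of all genes passed. The part of these cells in the Ndufs4 count was not tested.

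The defining neurons of the cerebellum were present in every group by their markers. The 5 granule neuron markers summed to 4755 to 5055 CPM in cKO, 4587 to 5194 CPM in cKO+NDI1, 4911 to 5220.4 CPM in NDI1 control and 4638 to 5260.1 CPM in Cre control. The 5 Purkinje cell markers summed to 6705 to 8229 CPM in cKO, 6668 to 8528 CPM in cKO+NDI1, 6744 to 10288 CPM in NDI1 control and 6640 to 8937 CPM in Cre control. None of these 10 markers passed in either knockout comparison, where 4.87% and 0% of all genes passed. The 5 markers of astrocytes and Bergmann glia summed to 3465 to 3813 CPM in cKO, 3422 to 3820.3 CPM in cKO+NDI1, 3737 to 4340 CPM in NDI1 control and 3809 to 4259.9 CPM in Cre control. Of these, Slc1a3, a glutamate transporter gene, fell in cKO against Cre control (log2 fold change -0.28, edgeR adjusted p = 0.00262), where 1.81% of all genes fell. It also fell in cKO+NDI1 against Cre control (-0.20, edgeR adjusted p = 0.0496), where 0.405% of all genes fell. In cKO+NDI1 against NDI1 control Slc1a3 had -0.23 (edgeR adjusted p = 0.259), where 0% of all genes passed. Slc1a3 was the only 1 of the 5 markers that passed in cKO against Cre control, where their log2 fold changes ran from -0.30 to 0.25. The 5 oligodendrocyte markers summed to 10282 to 16278 CPM in cKO, 8061 to 9911 CPM in cKO+NDI1, 8425 to 10858 CPM in NDI1 control and 11009 to 12713 CPM in Cre control. No oligodendrocyte marker passed between a knockout group and its own control (4.87% of all genes passed for cKO and 0% for cKO+NDI1). In cKO+NDI1 against cKO 3 fell (0.124% of all genes fell), and 3 fell in cKO+NDI1 against Cre control (0.405% of all genes fell). The part of these neural cell types in the Ndufs4 count was not tested.

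Library totals ran from 8665396 to 15901824 counts in cKO, 7584374 to 19785264 in cKO+NDI1, 14180056 to 17302266 in NDI1 control and 13594761 to 18287435 in Cre control. Ndufs4 had 583 to 2770 counts per library, so counting error was small beside the spread between mice: the 95% interval from counting alone ran from 71.0 to 83.6 CPM in the shallowest library, the cKO+NDI1 female F3. RNA of the mitochondrial genome took 2.78 ± 0.499% of counts in cKO, 2.57 ± 0.370% in cKO+NDI1, 2.26 ± 0.360% in NDI1 control and 1.89 ± 0.241% in Cre control (SD, n = 6 each); the part of this share in the Ndufs4 values was not tested.

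The genes whose log2 CPM followed Ndufs4 most closely over the 24 libraries, among 12499 genes considered, were Dbi, which binds acyl-CoA esters (r = 0.94), Rpl36al, a ribosomal protein gene (r = 0.94), Mrpl18, a mitochondrial ribosomal protein gene (r = 0.94), and Slc25a14, a mitochondrial carrier gene (r = 0.93). The most opposite were Sympk, a scaffold of the RNA 3′-end processing machinery, Mical2, an actin-oxidising enzyme, Zxdc, a zinc finger gene, and Iqgap1, a cytoskeletal scaffold, at -0.89 each. Across these genes 1% had an r above 0.86 and 1% below -0.81. With the mean of each group and sex subtracted, the closest were Rps25, a ribosomal protein gene (r = 0.98), Naca, which guards nascent chains at the ribosome (r = 0.98), and Pfdn5, a prefoldin subunit (r = 0.97).

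With predicted genes included, 13198 genes were considered. The 132 genes with the highest such r, the top 1%, had a median gene model length of 2660 bases and included 32 with ribosomal protein symbols and 11 complex I subunits. The 132 with the lowest r had a median length of 12351 bases and included 0 of either. Over all 13198 the median length was 6620 bases, with 92 ribosomal protein symbols and 35 complex I subunits. These correlations are descriptions over 24 libraries that share depth and scaling. Of the 3 closest genes named, Rps25 and Pfdn5 have models shorter than that median and Naca a longer model, of 8152 bases.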

How the data were processed

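Per the labels, polyA-selected libraries were made from whole cerebellum. The submitters' processing notes list STAR, HTSeq, Trimmomatic and bcl2fastq, and the build mm10; versions are not given in the sources used here. The deposited table holds raw counts per gene and library, with no normalization by the authors. Whether counting used strand is not given in the sources used here. No tested gene overlaps Ndufs4 by the deposited coordinates, and genes that were not tested were not checked.

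Gene symbols matched 42462 of 43430 identifiers, and 0 per-library columns were left unused. Genes were filtered with filterByExpr and scaled by TMM, leaving 15300. Differences were tested with the quasi-likelihood F test of edgeR (edgeR 4.0.16, limma 3.58.1, R 4.3.3) on all 24 libraries with group and sex as terms, Benjamini-Hochberg adjusted over all genes, with a threshold of 0.05. Each edgeR standard error is the size of the log2 fold change over the square root of F. On the scale relative to the other subunits, it comes from the variances of the 2 groups, without a sex term. DESeq2 and limma-voom gave their own standard errors. Log2 CPM used a prior count of 2. Single values were compared by exact two-sided permutation within sex. Exons and sequences come from the GENCODE annotation and transcript sequences for GRCm38, the assembly named mm10.

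Named genes were Ndufs4, the other N module members, Ndufaf2, subunits or assembly factors that passed, the 5 nearest tested genes on each side, neighbours among the 20 per side that passed, and the genes most and least correlated with Ndufs4 at a mean log2 CPM of at least 1. Predicted genes were passed over among the correlated genes named, and kept in the counts of genes with the highest and lowest correlations. Slc1a3 and the other markers named individually were chosen after their values were seen. The members, lists and tests were chosen with earlier results of these data known. The pipeline was tested on simulated counts with known changes. Alternatives were RLE size factors, library size alone, no filter, DESeq2 1.42.0, limma-voom, no sex term, a replicate block, the compared groups alone, each sex alone, thinned counts and leaving out each library.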

Additional observations from a re-analysis of the deposited data

How the results depend on the processing

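Ndufs4 kept a negative value in both knockout comparisons under every alternative listed, and outside the 3 settings added after the values were seen its side of the threshold changed only when the cKO female F3 was left out. Leaving out each library gave -0.62 (without cKO F3, adjusted p = 0.0162) to -0.36 (without cKO M3, adjusted p = 0.181) for cKO against Cre control. It gave -0.55 to -0.40 for cKO+NDI1 against NDI1 control, -0.46 to -0.35 for cKO+NDI1 against Cre control, -0.034 to 0.23 for cKO+NDI1 against cKO, 0.00 to 0.16 for NDI1 control against Cre control and -0.13 to 0.14 for the interaction. It gave -0.66 to -0.46 for the difference between the sexes, which then passed in 4 of 24 fits, 0.14 to 0.25 for males against females, and -0.55 to -0.42 for both knockout groups together, which passed in all 24. The remaining level was 65.4% to 75.5% in cKO and 67.0% to 76.2% in cKO+NDI1, and the relative differences were -0.41 to -0.32 and -0.40 to -0.35.

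The covariate of other subunits moved cKO against Cre control to -0.35, cKO+NDI1 against NDI1 control to -0.36 and cKO+NDI1 against Cre control to -0.42, all past the threshold (adjusted p = 1.27e-05, 0.000338 and 5.46e-06). It turned cKO+NDI1 against cKO to -0.070 and NDI1 control against Cre control to -0.058. Gene length offsets gave -0.45 and -0.42 for the knockout groups against Cre control, past the threshold (adjusted p = 0.00818 and 0.0267). In cKO against Cre control 24.7% of all genes passed with the covariate and 6.63% with length offsets. With the covariate 0.542% passed in cKO+NDI1 against NDI1 control. For cKO+NDI1 against Cre control the share was not computed in either setting. Its passes there therefore cannot be read as particular to Ndufs4. In females alone both knockout groups together gave -0.20 (adjusted p = 0.397), cKO+NDI1 against cKO -0.14 and NDI1 control against Cre control -0.028. The interaction, near 0, turned positive with limma-voom (0.032), males alone (0.15), thinned counts (0.017), the surrogate variable (0.022) and length offsets (0.0015). DESeq2 put the difference between the sexes past the threshold at -0.56, where the share of all genes that passed was not computed. Beyond the construction of each fit the cause was not tested.

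The number of genes called in cKO against Cre control was 745, and it was 425 with no filter, 1159 with DESeq2, 263 with the compared groups alone, 38 in males, 364 in females, 3781 with the covariate, 307 with the surrogate variable, and 504 to 914 with a library left out. In cKO+NDI1 against NDI1 control it was 0, and 2 with no filter, 23 with DESeq2, 1 in males, 83 with the covariate, and 0 to 3 with a library left out. Same-numbered libraries of different groups had deviations correlated from -0.40 to 0.51 over 36 pairs, with a median of 0.11 and 19 of them over 0.1. Differently numbered libraries were not compared in this way, so whether the replicate numbers pair the libraries was not tested. A replicate block gave -0.47 and -0.48 for the knockout comparisons and changed no call, with 754 and 0 genes called.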
